A study of Rattus norvegicus with 32 samples.

Results

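Inhibitory interneurons are told apart by the peptides and calcium-binding proteins they make, and 10 genes of that kind and of the GABA pathway were followed here across 32 bulk RNA-seq samples of rat brain. The genes were taken by name: the neuropeptides Sst, Npy, Vip, Cck and Cort, the calcium-binding proteins Pvalb and Calb2, the glutamate decarboxylases Gad1 and Gad2, and the vesicular GABA transporter Slc32a1. Of these 10 genes, 9 had a row among the 28914 genes of the deposited count tables. Cort had no row, and its expression was not analysed here. Npy held 0 to 3 reads in each of the 32 samples and is given no fold change. It is a known peptide of forebrain interneurons, and counts this low are not read here as its absence from these regions. This leaves 8 genes that were measured and tested in every comparison.

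All samples came from adult male Sprague-Dawley rats. The METH group received 4 intraperitoneal injections of (+)-methamphetamine hydrochloride at 10 mg/kg, spaced 2 h apart, and the saline group received saline at 1 mL/kg on the same schedule. Brains were dissected 24 h after the final dose into the nucleus accumbens (NAc), the dentate gyrus (DG), the Cornu Ammonis (CA) of the hippocampus and the subventricular zone (SVZ), with 4 samples for each region and treatment. No transgene or deletion is involved, the labels do not tie a replicate number to a named animal, and the p-values below therefore measure the spread between these samples, which may in part be technical. Library numbers in the file headers link some samples of different regions, and the main fits do not use these links.

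GABA is made from glutamate by GAD67, the product of Gad1, and by GAD65, the product of Gad2, and is loaded into synaptic vesicles by VGAT, the product of Slc32a1. In the striatum, to which the NAc belongs, the principal medium spiny neurons are themselves GABAergic, so these genes mark most neurons there, whereas in the hippocampus the principal neurons are glutamatergic and the same genes mark a minority of local interneurons. Somatostatin (Sst), vasoactive intestinal peptide (Vip), cholecystokinin (Cck), parvalbumin (Pvalb) and calretinin (Calb2) label largely separate interneuron classes, although Cck is also made by glutamatergic cells and Pvalb and Calb2 by neurons outside the forebrain interneuron classes. In bulk tissue, fewer cells of a type and less RNA per cell cannot be told apart.

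The promoters of the GABA genes are shown because these 3 genes moved together from sample to sample, and that of Sst because it did not follow them. Each stretch runs from 250 bases before to 20 bases after the RefSeq gene start in the GRCr8 assembly, 5′ to 3′ on the gene's strand, and capitals mark the motif matches described next.
Gad1, chr3:75777202-75777471, plus strand: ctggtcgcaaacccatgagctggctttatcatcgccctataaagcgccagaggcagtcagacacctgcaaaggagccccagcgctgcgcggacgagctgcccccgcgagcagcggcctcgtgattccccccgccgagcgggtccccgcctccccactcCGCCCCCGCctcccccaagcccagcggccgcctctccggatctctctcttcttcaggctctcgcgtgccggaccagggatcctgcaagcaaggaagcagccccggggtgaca
Gad2, chr17:89671468-89671737, plus strand: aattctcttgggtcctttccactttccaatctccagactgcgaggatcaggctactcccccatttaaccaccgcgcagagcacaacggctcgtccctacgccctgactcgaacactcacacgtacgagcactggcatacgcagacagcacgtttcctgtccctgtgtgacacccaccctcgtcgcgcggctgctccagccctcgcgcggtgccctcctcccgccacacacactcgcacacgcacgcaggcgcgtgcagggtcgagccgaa
Slc32a1, chr3:167686995-167687264, plus strand: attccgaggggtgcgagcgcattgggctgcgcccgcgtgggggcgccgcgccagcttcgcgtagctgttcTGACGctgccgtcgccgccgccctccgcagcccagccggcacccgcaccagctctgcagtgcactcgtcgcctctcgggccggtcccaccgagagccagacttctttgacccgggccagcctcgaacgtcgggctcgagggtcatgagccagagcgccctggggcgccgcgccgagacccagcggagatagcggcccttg
Sst, chr11:90461296-90461565, plus strand: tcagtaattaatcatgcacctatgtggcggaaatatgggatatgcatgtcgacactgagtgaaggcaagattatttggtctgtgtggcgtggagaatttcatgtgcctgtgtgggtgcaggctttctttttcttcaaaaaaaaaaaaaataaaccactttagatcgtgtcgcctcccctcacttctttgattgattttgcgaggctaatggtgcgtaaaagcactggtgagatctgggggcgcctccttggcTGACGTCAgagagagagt

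Promoter sequences were found for 8 of the 10 genes, and Cck and Calb2 had no entry. Motifs were searched on both strands in the 300 bases from 250 before to 50 after the start. The cyclic AMP response element TGACGTCA, the site through which the cAMP-responsive factor CREB acts, was present in Sst from position 3 of the gene and in 1.83% of all 33469 promoters. Its shorter core TGACG, which lies within the full element, was found in 5 of the 8 genes (Sst, Vip, Pvalb, Slc32a1 and Cort) and in 21.2% of all promoters. An Egr motif, GCGNGGGCG, was found in Gad1 alone, 92 bases before the start, and in 4.98% of all promoters. The AP-1 motif TGANTCA was found in none of the 8 and in 7.33% of all promoters. The GC content of the 300 bases was 67.7% for Gad1, 63.7% for Gad2 and 73.7% for Slc32a1, against 45.7% for Sst and a median of 51.7% over all promoters. A match in these letters is a description and not a test of binding.

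The count tables held 11094002 to 21869773 counted reads per sample, with the SVZ samples the deepest at 17269245 or more. Values below are CPM, counts scaled to upper-quartile-normalized library size, unless they are called RPKM, which divides the CPM by the gene's exon length in kilobases and is the scale used between genes. Marker genes showed that some libraries stood apart from their region. A sum of 12 medium spiny neuron markers was 2097 to 10697 CPM in the NAc saline samples and 439 to 616 CPM in DG saline replicates 1, 2 and 4, but 2497 CPM in DG saline replicate 3, where the 8 cortical and hippocampal glutamatergic markers summed to 82.4 CPM against 1418 to 2134 CPM in the other DG saline samples. A sum of 6 thalamic markers was 1824, 1653 and 1105 CPM in SVZ saline replicate 1, SVZ METH replicate 2 and SVZ METH replicate 4, against 85.9 to 521 CPM in the other SVZ samples. NAc METH replicate 3 had 407 CPM of medium spiny neuron markers and 1677 CPM of septal and hypothalamic markers, against 19.6 to 104 CPM of the latter in the other NAc samples. Choroid plexus markers were 2086 to 8029 CPM in DG saline replicate 4, DG METH replicate 3, CA saline replicate 2 and SVZ METH replicate 3, against at most 387 CPM elsewhere. Prox1, which defines dentate granule cells, was 27.1 to 155 CPM in DG saline and 33.8 to 301 CPM in CA saline samples, so the DG label was not borne out by this gene in the saline samples. A sum of 6 neuroblast markers was 362 to 495 CPM in SVZ saline and 351 to 508 CPM in NAc saline samples, and did not set SVZ apart. A sum of 4 ependymal markers was 23.0 to 246 CPM in SVZ saline and 8.56 to 64.6 CPM in NAc saline samples.

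Per exon length, the most abundant of the 8 genes over the 32 samples were Sst, with a median of 103 RPKM, Gad2 with 97.8, Cck with 92.7 and Gad1 with 88.0. Slc32a1 followed at 55.6 RPKM and Pvalb at 42.7, and Calb2 and Vip were lowest at 7.67 and 4.20. The members also differed in their spread over samples. Gad1 varied 4.35-fold between its lowest and highest sample, Slc32a1 7.01-fold and Gad2 7.05-fold. Sst varied 20.7-fold, Calb2 45.8-fold, Pvalb 52.9-fold, Cck 110.3-fold and Vip 181-fold, so the 3 GABA genes formed the narrow end of the range and the peptides and calcium-binding proteins the wide end. Many of these extremes lay in libraries whose markers stood apart. That held for the highest sample of Vip, Cck, Pvalb and Calb2 and the lowest of Sst, Cck and Pvalb. The lowest Vip sample held only 5 reads.

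Gad1, Gad2 and Slc32a1 were high in NAc and SVZ and low in CA. Gad1 (rn6 chromosome 3, 56861396 to 56902157) was 526, 622, 535 and 475 CPM in NAc saline replicates 1 to 4 and 483, 499, 489 and 526 CPM in SVZ saline, against 193, 209.7, 251 and 228 CPM in CA saline. Gad2 (rn6 chromosome 17, 89171250 to 89238040) was 759, 1103, 1024 and 748 CPM in NAc saline and 667, 964, 798 and 854 CPM in SVZ saline, against 261, 256, 262 and 272 CPM in CA saline. Slc32a1 (rn6 chromosome 3, 155103150 to 155107817) was 294, 356, 297 and 225 CPM in NAc, 135, 237, 261 and 240.2 CPM in SVZ and 57.4, 67.7, 65.5 and 76.3 CPM in CA saline. For each of these genes, no NAc or SVZ saline sample overlapped the CA saline samples. Medium spiny neuron markers summed to 4291 to 7447 CPM in SVZ saline replicates 2 to 4, within the range of the NAc saline samples, and to 414 CPM in replicate 1. The part of striatal tissue in the SVZ levels was not tested, so they are not read as a trait of the SVZ itself.

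**Figure D1:**
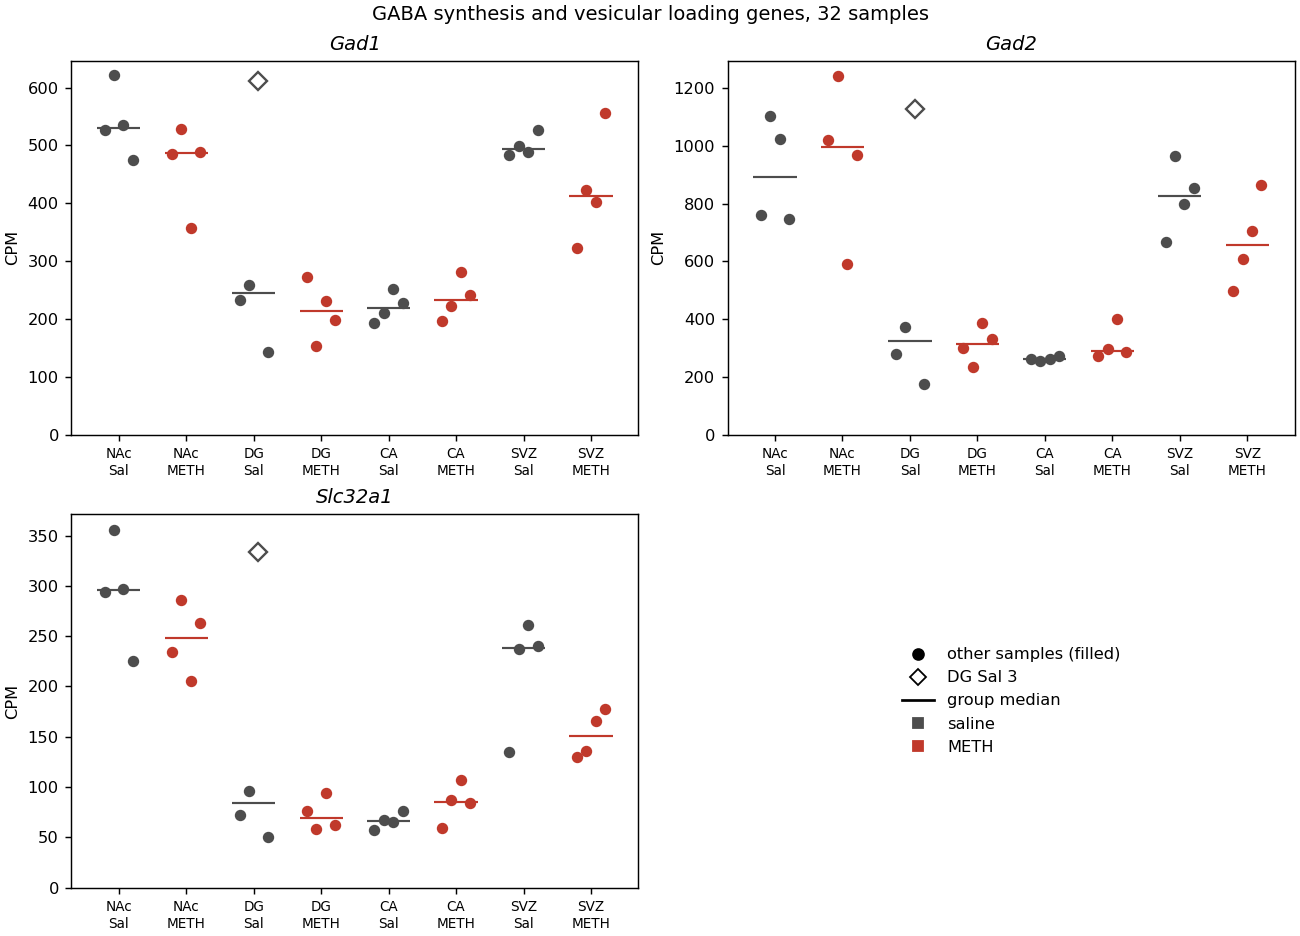
CPM (linear axis from 0) of Gad1, Gad2 and Slc32a1 in each of the 32 samples by region and treatment; points are samples, lines are group medians and the open diamond is DG saline replicate 3. The diamond sits at 611, 1129 and 334 CPM, at the level of the NAc samples, while the other 3 DG saline samples lie with the CA samples.

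The DG saline group was split. Gad2 was 278, 372 and 176 CPM in replicates 1, 2 and 4 and 1129 CPM in replicate 3, and Gad1 was 232, 259 and 143 CPM against 611 CPM. Slc32a1 was 71.8, 96.6 and 50.8 CPM against 334 CPM. The library that was high in all 3 GABA genes was the library that carried medium spiny neuron markers, and the part of those cells in its GABA gene levels was not tested.

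With all 16 saline samples in the edgeR quasi-likelihood fit, no member passed FDR below 0.01 with a fold change above 2 in any of the 6 region pairs. Across all 15515 genes tested, 0.812% passed in CA against SVZ, 0.0193% in DG against SVZ and 0% in the other 4 pairs. At an unadjusted p below 0.05, 3 members differed between NAc and CA, 3 between NAc and DG, 3 between CA and SVZ, 2 between NAc and SVZ, 2 between DG and CA and 1 between DG and SVZ, where 24.1%, 11.5%, 31.6%, 12.6%, 8.93% and 17.6% of all genes did. The GABA genes came closest to the threshold. Between NAc and CA the log2 difference was 1.32 ± 0.31 (SE) for Gad1, 1.82 ± 0.42 for Gad2 and 2.17 ± 0.46 for Slc32a1, with FDR 0.0342, 0.0325 and 0.0298. Between CA and SVZ it was -1.22 ± 0.31, -1.69 ± 0.42 and -1.75 ± 0.46, with FDR 0.0239, 0.022 and 0.0255. Under DESeq2 the same 3 genes passed in these 2 pairs, where 3.41% and 4.94% of all genes did. No member passed with DESeq2 in NAc against DG, NAc against SVZ, DG against CA or DG against SVZ, where 0.0709%, 0.284%, 0% and 0.754% of all genes did.

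Leaving out DG saline replicate 3 changed the outcome of the saline comparisons. Gad1, Gad2 and Slc32a1 then passed in 4 of the 6 pairs, including 2 pairs in which DG takes no part, since the 4 regions share an estimate of the spread in this fit. In NAc against CA the log2 differences stayed at 1.32, 1.82 and 2.17 with FDR 0.000751, 0.000487 and 0.00043, where 1.33% of all genes passed. In NAc against DG they went from 0.81, 0.91 and 1.09 to 1.39, 1.76 and 2.04, with FDR 0.00193, 0.00234 and 0.00193, where 0.229% of all genes passed. In DG against SVZ they went from -0.71, -0.77 and -0.68 to -1.29, -1.62 and -1.63, with FDR 0.00278, 0.00315 and 0.00512, where 0.445% of all genes passed. CA against SVZ held -1.22, -1.69 and -1.75 with FDR 0.00101, 0.000691 and 0.00112, where 2.46% of all genes passed. No member passed between NAc and SVZ or between DG and CA in this fit, and in DG against CA the differences of the GABA genes shrank to -0.06, 0.06 and 0.13 from 0.52, 0.92 and 1.07.

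**Figure D2:**
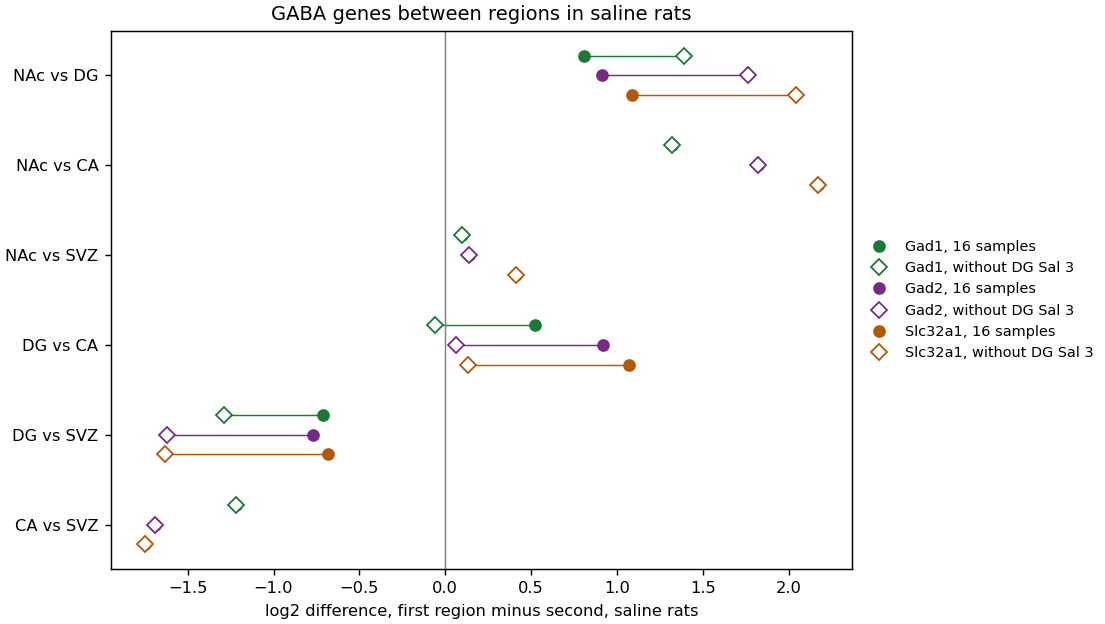
Log2 difference between saline regions (first region minus second) for Gad1, Gad2 and Slc32a1 with all 16 saline samples (filled circles) and without DG saline replicate 3 (open diamonds). In the 3 pairs with DG the symbols move apart, for Gad2 from 0.91 to 1.76 in NAc against DG, and in the other 3 pairs they coincide.

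The GABA genes varied less relative to each other than in their own levels. Per length, the Gad1 to Gad2 ratio of RPKM was 0.613 to 1.38 over the 32 samples with a median of 0.938, and the Slc32a1 to Gad2 ratio was 0.436 to 0.903 with a median of 0.609. The Gad1 to Gad2 ratio was 1.06 to 1.38 in the CA saline samples and 0.752 to 0.996 in the NAc saline samples, so these groups did not overlap in this ratio. With the mean of each region and treatment subtracted, the genes most like Gad1 over the 32 samples among 14450 genes were Gad2 (Pearson r = 0.92), Slc32a1 (r = 0.88) and Nsg1 (r = 0.82). Those most like Gad2 were Gad1, Slc32a1 (r = 0.91) and Sv2c (r = 0.81), and those most like Slc32a1 were Gad2, Gad1 and Nkx2-1 (r = 0.83). These correlations are descriptions over samples that share tissue makeup.

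Sst, the peptide of dendrite-targeting interneurons, had nearly the same mean level in saline rats of all 4 regions, at 63.6 ± 12.4 CPM (SD, n = 4) in NAc, 63.2 ± 23.2 in DG, 62.3 ± 16.9 in CA and 61.2 ± 45.1 in SVZ. The SVZ mean covered a wide spread, with 5.51, 111, 80.9 and 48.0 CPM in replicates 1 to 4. Its lowest sample, replicate 1, was the one with the highest thalamic marker sum, and SVZ METH replicate 2, the library with the next highest sum, was low as well at 12.3 CPM against 62.8 to 67.8 CPM in the other SVZ METH samples. In the edgeR fit the unadjusted p of the Sst difference between regions was 0.912 or above in all 6 pairs. No order of the 4 regions can be read for Sst beyond its spread.

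Vip, Cck and Pvalb showed the opposite pattern in SVZ. Vip, the peptide of interneurons that mostly inhibit other interneurons, was 74.3, 3.65, 1.84 and 0.446 CPM in SVZ saline replicates 1 to 4. Cck, the peptide of a class of perisomatic basket cells, was 348, 35.1, 22.0 and 17.0 CPM in the same samples. Pvalb, the calcium buffer of fast-spiking basket cells, was 317, 17.8, 10.2 and 6.97 CPM. Replicate 1 thus held all 3 transcripts at levels far from the other SVZ saline samples, and in SVZ METH the highest Pvalb values, 227 and 252 CPM in replicates 2 and 4, again fell in the libraries with thalamic markers, against 6.06 and 48.1 CPM in replicates 1 and 3. Vip was high in SVZ METH replicate 2 at 76.3 CPM but not in replicate 4 at 8.12 CPM. The part of thalamic tissue in these levels was not tested.

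**Figure D3:**
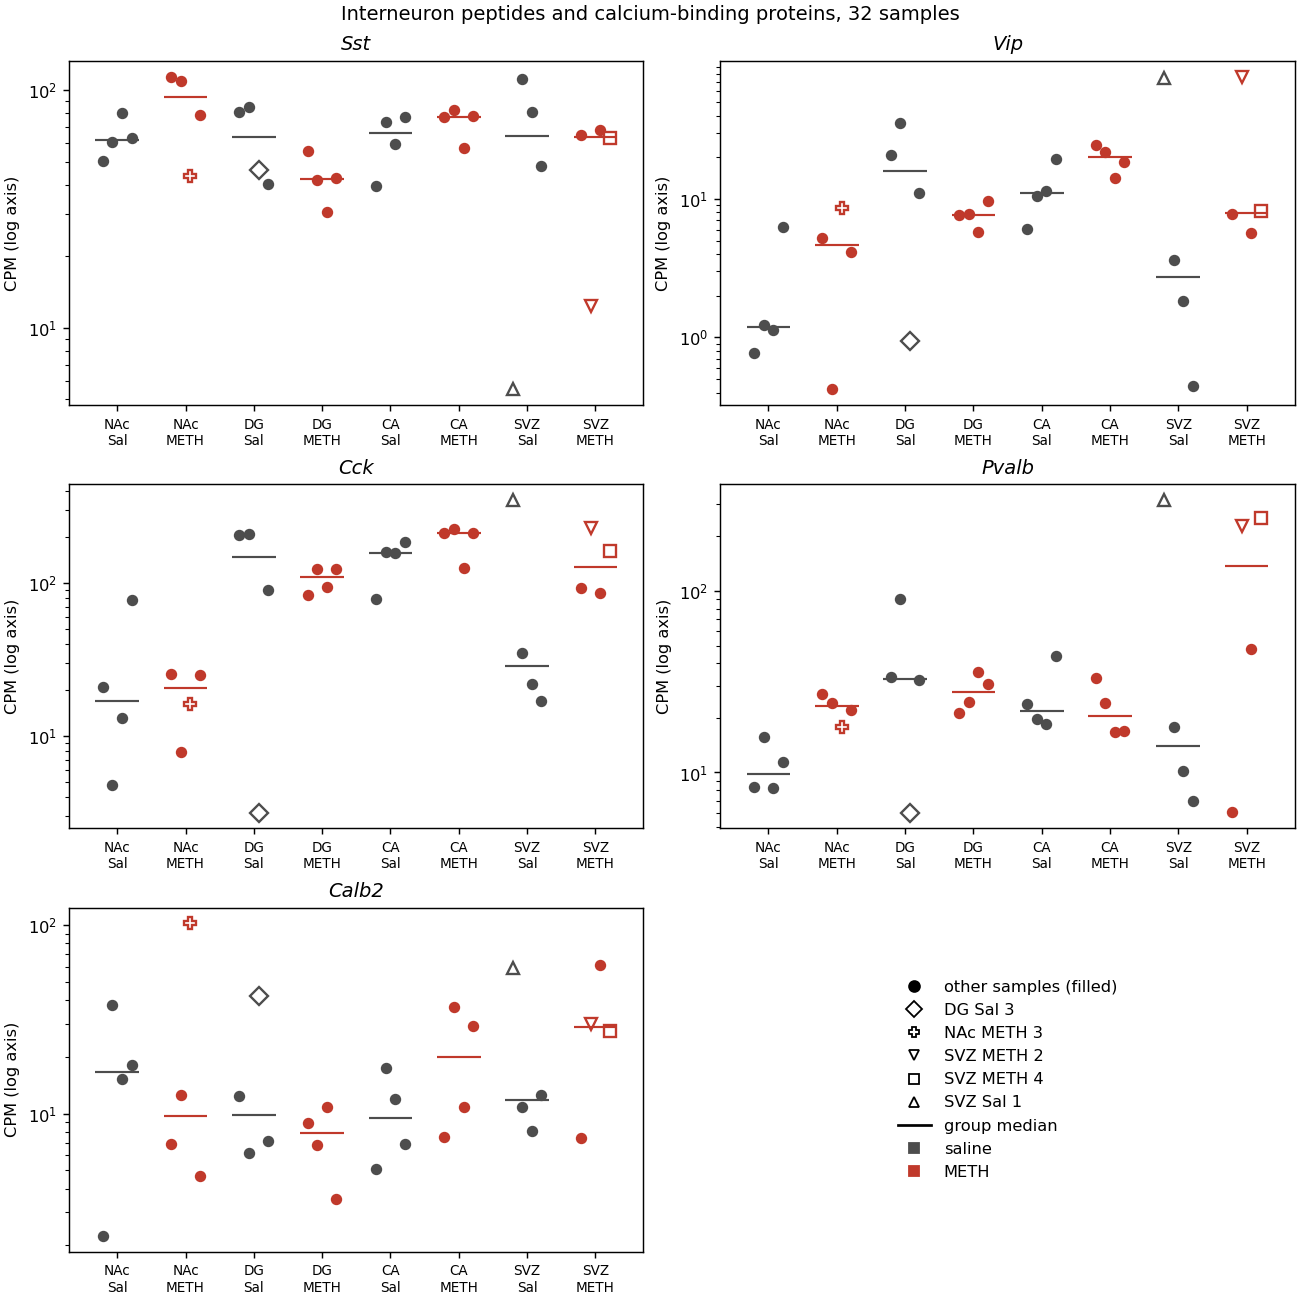
CPM (log axis) of Sst, Vip, Cck, Pvalb and Calb2 in each of the 32 samples by region and treatment; filled points are samples, lines are group medians and open symbols mark the 5 libraries whose neuronal marker genes stood apart. SVZ saline replicate 1 and SVZ METH replicate 2 are lowest for Sst, at 5.51 and 12.3 CPM, and highest for Vip, at 74.3 and 76.3 CPM.

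Among saline samples, the mean levels of Vip, Cck and Pvalb were lower in NAc than in CA, although no difference passed the test. Vip was 0.771, 1.24, 1.13 and 6.29 CPM in NAc saline and 6.03, 10.5, 11.4 and 19.5 CPM in CA saline. Cck was 20.8, 4.82, 13.2 and 77.9 CPM in NAc saline and 78.2, 159, 156 and 186 CPM in CA saline. Pvalb was 8.33, 15.7, 8.18 and 11.4 CPM in NAc saline and 23.8, 19.7, 18.6 and 43.8 CPM in CA saline. The NAc and CA samples did not overlap for Cck or Pvalb, and overlapped for Vip between 6.03 and 6.29 CPM. The unadjusted p was 0.102 for Vip, 0.0657 for Cck and 0.248 for Pvalb. In all, 5 of the 8 members did not overlap between NAc and CA saline, the GABA genes higher in NAc and Cck and Pvalb higher in CA, where 21.5% of all tested genes did not overlap. Between CA and SVZ saline the groups of 3 members, the GABA genes, did not overlap, where 20.8% of all genes did not. No member was free of overlap between NAc and DG, NAc and SVZ, DG and CA or DG and SVZ, where 2.95%, 7.38%, 3.58% and 5.49% of all genes were.

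In DG saline the same 3 genes showed the reverse image of the GABA genes. Cck was 205, 209 and 89.8 CPM in replicates 1, 2 and 4 and 3.16 CPM in replicate 3, Vip was 20.9, 35.2 and 11 CPM against 0.947 CPM, and Pvalb was 33.6, 90.7 and 32.3 CPM against 6.0 CPM. Calb2 went the other way, with 12.4, 6.16 and 7.16 CPM against 42.3 CPM. Replicate 3 was thus the lowest DG saline sample for Cck, Vip and Pvalb and the highest for Calb2. The difference between DG and SVZ for Vip and Pvalb turned its sign on SVZ saline replicate 1. It was -0.28 for Vip and -1.15 for Pvalb with all samples, and 3.03 (FDR 0.108) and 1.74 (FDR 0.134) without that replicate. With DG saline replicate 3 left out as well, it was 3.42 (FDR 0.0186) and 2.11 (FDR 0.0151).

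Calb2, the marker of calretinin interneurons, had no stable order between regions. Its saline means were 22.8 ± 24.6 CPM in SVZ, 18.3 ± 14.6 in NAc, 17.0 ± 17.1 in DG and 10.4 ± 5.56 in CA (SD, n = 4), each neighbour lying within the other's spread. The highest Calb2 value of the series, 102 CPM, was in NAc METH replicate 3, against 4.67 to 12.5 CPM in the other NAc METH samples, and that is the NAc library with septal and hypothalamic markers. Whether that tissue accounts for the value was not tested.

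With group means subtracted, Vip followed Cck over the 32 samples (r = 0.86) and Pvalb (r = 0.73), and Cck followed Pvalb (r = 0.66). Sst ran against Vip (r = -0.55) and Pvalb (r = -0.50), and Slc32a1 ran against Cck (r = -0.76). These values include the libraries whose markers stood apart. In SVZ saline replicate 1 Sst was 5.51, Vip 74.3 and Pvalb 317 CPM, and in DG saline replicate 3 Slc32a1 was 334 and Cck 3.16 CPM. The part of such libraries in the correlations was not tested. The genes most like Vip were Kcnj9 (r = 0.92), Gabbr2 and Map3k9 (both r = 0.91), those most like Pvalb included Ina (r = 0.94) and Kcnab3 (r = 0.93), and those most like Cck were Galnt9 (r = 0.91), Mical2 and Nptx2 (both r = 0.90). The genes most like Sst were Ctxn1 (r = 0.91), Gda (r = 0.90) and Hpcal4 (r = 0.89), and those most like Calb2 were Grin2d (r = 0.92), Sparc and Slc6a11 (both r = 0.90). No gene of the panel was among the 3 most like Sst, Vip, Cck, Pvalb or Calb2, whereas the GABA genes named each other.

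The comparison of METH with saline asked which transcripts differed 24 h after the binge in each region. No member met FDR below 0.01 with a fold change above 1.5 in any region in edgeR, and 0% of the 14771 genes tested in NAc, the 14800 in DG, the 14612 in CA and the 15579 in SVZ did. In simulated counts, a log2 change of 1 was called in 61% of changed genes in NAc, 19% in DG, 72% in CA and 1% in SVZ. Those counts were drawn independently for each gene, and only well-counted genes were changed. They held no tissue differences shared by many genes, so these shares need not hold for the real samples. In the real NAc samples the smallest FDR of any gene was 0.999 in edgeR. The lack of calls is therefore not read as the lack of a METH effect. DESeq2 called no member in any region either, while it called 3 genes in NAc, 183 in DG, 10 in CA and 2 in SVZ. At an unadjusted p below 0.05 there was 1 member in NAc (Pvalb), 0 in DG, 1 in CA (Vip) and 0 in SVZ, where 3.39%, 12.8%, 7.16% and 2.58% of all tested genes were below it.

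**Figure D4:**
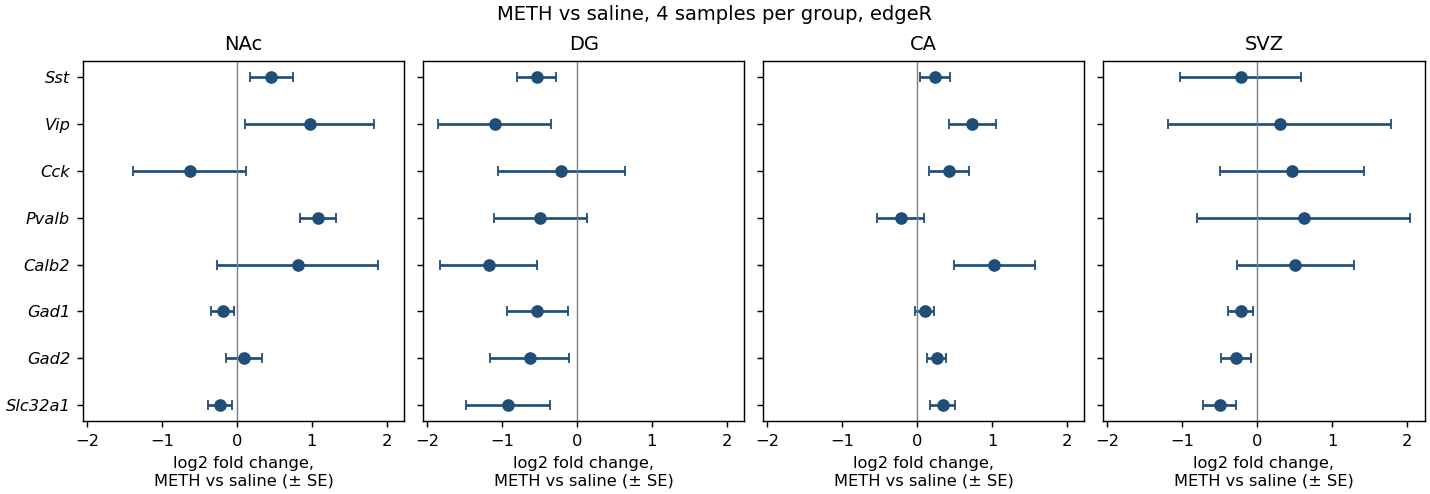
Log2 fold change of METH against saline (points) with its standard error (bars) for the 8 members in each region, 4 samples per group. Pvalb in NAc lies at 1.08 ± 0.24 and all 8 members lie below 0 in DG, while the SVZ bars for Vip and Pvalb are the widest, with standard errors of 1.49 and 1.42.

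In NAc, Pvalb (rn6 chromosome 7, 119429019 to 119441487) was 8.33, 15.7, 8.18 and 11.4 CPM in saline and 27.2, 24.2, 17.8 and 22.0 CPM in METH samples. Every METH sample lay above every saline sample, as was the case for 2.3% of all tested genes in either direction. The log2 fold change was 1.08 ± 0.24 (SE) with an unadjusted p of 0.00158 and FDR 0.999 in edgeR, so it did not pass across all genes. It stayed between 0.95 and 1.32 when each sample was left out in turn, and DESeq2 gave 1.05 with FDR 0.0728. That was the lowest FDR of 9 alternatives. Over these the log2 fold change was 1.05 to 1.4 and the unadjusted p 5.43e-05 to 0.259 across edgeR and DESeq2. The thalamic marker sum was 71.1 to 129 CPM in the saline and 71.0 to 292 CPM in the METH samples. It was highest in METH replicate 3, the library with septal and hypothalamic markers, and its part in the Pvalb values was not tested. The sum of 6 astrocyte markers did separate the treatments, with 2519.7 to 2712 CPM in saline and 2885 to 4134 CPM in METH samples, and its part in the Pvalb values was not tested. Of the 6, Gfap had a log2 fold change of 1.58 ± 0.32 (FDR 0.999 in edgeR). The others were Aldh1l1 at 0.54, Aqp4 at 0.44, Slc1a3 at 0.38, Slc1a2 at 0.08 and Gja1 at -0.12. The sum is therefore not read as astrocyte content.

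The other peptides in NAc overlapped between the treatments, with log2 fold changes of 0.97 ± 0.86 for Vip and -0.63 ± 0.75 for Cck. Sst was 50.4, 60.7, 80.2 and 63.0 CPM in saline and 114, 109, 43.6 and 78.6 CPM in METH samples, with a log2 fold change of 0.46 ± 0.29 and unadjusted p of 0.14. Without METH replicate 3 it was 0.68 with an unadjusted p of 0.00594 and FDR 0.944 in edgeR. Calb2 turned from 0.81 to -1.19 without that replicate. The fold changes of Gad1, Gad2 and Slc32a1 were -0.19 ± 0.15, 0.10 ± 0.24 and -0.22 ± 0.16, and their samples overlapped between the treatments.

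In CA, Vip (rn6 chromosome 1, 42169501 to 42177582) was 6.03, 10.5, 11.4 and 19.5 CPM in saline and 24.7, 21.7, 14.2 and 18.5 CPM in METH samples, with a log2 fold change of 0.74 ± 0.31, unadjusted p of 0.042 and FDR 0.688 in edgeR. The groups overlapped, since METH replicates 3 and 4 lay below the highest saline sample. Gad2 was 256 to 272 CPM in saline and 274 to 402 CPM in METH samples and was the only member in CA whose groups did not overlap, where 4.44% of all tested genes did not. Its log2 fold change was 0.26 ± 0.13 with an unadjusted p of 0.0694. METH replicate 3, at 402 CPM, also had the highest medium spiny neuron marker sum of the CA samples, 1127 CPM against 483 to 640 CPM. Slc32a1 was 0.34 ± 0.17, Calb2 1.03 ± 0.54, Cck 0.43 ± 0.27, Sst 0.24 ± 0.20, Gad1 0.10 ± 0.13 and Pvalb -0.22 ± 0.31 on the log2 scale.

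In DG all 8 members had a log2 fold change below 0, from -0.21 for Cck to -1.18 for Calb2, with Vip at -1.10 ± 0.76 and Pvalb at -0.49 ± 0.62 and a median of -0.58 against -0.01 over all genes. None reached an unadjusted p of 0.05, the lowest being 0.0711 for Sst at -0.54 ± 0.26, and the groups of all 8 overlapped, where 6.8% of all genes did not. The sum of 6 astrocyte markers was 2387 to 3095 CPM in DG saline and 3375 to 3686 CPM in DG METH samples, and that of 4 ependymal markers was 25.8 to 100 CPM against 138 to 154 CPM. Both separated the treatments, and their part in the members' values was not tested. The astrocyte sum includes Gfap here too and is not read as astrocyte content. The signs depended on DG saline replicate 3 for part of the panel. Without it, Gad1, Gad2 and Slc32a1 went from -0.53, -0.63 and -0.92 to 0.05, 0.23 and 0.03, and Calb2 from -1.18 to -0.16. Vip, Sst, Cck and Pvalb kept their sign and moved further from 0, with Vip at -1.49 (unadjusted p of 0.0029, FDR 0.176), Sst at -0.65 (unadjusted p of 0.0427, FDR 0.345), Cck at -0.62 and Pvalb at -0.85 in edgeR. In that fit Vip was 20.9, 35.2 and 11 CPM in saline and 7.62, 7.74, 5.80 and 9.74 CPM in METH samples. Library numbers in the file headers also differed between DG and the other regions for replicates 1 and 2, which carry the numbers 20 and 21 for saline and 14 and 15 for METH in DG and the reverse in NAc and CA. Whether the treatment labels of these 4 DG libraries were exchanged was not tested, so the METH fold changes in DG and the saline comparisons with DG hold for the labels as given. With replicates 1 and 2 of both treatments left out, Vip was 0.35, Cck 1.21 and Pvalb 0.78. The saline group of that fit held only replicate 4 and replicate 3, the library with medium spiny neuron markers. Vip was 0.947 CPM in saline replicate 3 and 11 CPM in saline replicate 4, against 5.80 and 9.74 CPM in the METH samples. The signs of this fit therefore also depend on DG saline replicate 3.

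In SVZ the groups of all 8 members overlapped, where 1.69% of all genes did not, and the peptides varied widely within each group. Slc32a1 had the lowest unadjusted p at 0.0523, with 135, 237, 261 and 240.2 CPM in saline and 130.4, 136, 166 and 178 CPM in METH samples and a log2 fold change of -0.50 ± 0.22 (FDR 0.979 in edgeR). Its low saline sample was again replicate 1. Without SVZ saline replicate 1 the fold change was -0.68 with FDR 0.27. Without all 3 libraries that held thalamic markers it was -0.71 (unadjusted p of 0.00313, FDR 0.623 in edgeR), with Gad1 at -0.45 and Gad2 at -0.51. Leaving out these 3 was chosen after seeing the data and kept only saline replicates 2 to 4 and METH replicates 1 and 3. The SVZ METH samples share a library number in pairs, 1669 for replicates 1 and 2 and 1670 for replicates 3 and 4. The SVZ tests treat these 4 samples as separate, and whether the samples of a pair are independent was not tested. With the counts of each pair summed, no member was called either. Medium spiny neuron markers summed to 4291 to 7447 CPM in SVZ saline replicates 2 to 4 and to 2221 and 3639 CPM in METH replicates 1 and 3. In saline replicate 1, METH replicate 2 and METH replicate 4 they summed to 414, 304 and 1116 CPM, where Gad1 was 483, 423 and 556 CPM. The highest Gad1 value in SVZ was thus in METH replicate 4, and the part of these markers was not tested. Sst, Pvalb and Calb2 were -0.22 ± 0.81, 0.62 ± 1.42 and 0.51 ± 0.78, and Gad1 and Gad2 -0.22 ± 0.17 and -0.28 ± 0.20, on the log2 scale. Cck and Vip were 0.46 ± 0.96 and 0.30 ± 1.49 with all samples and 1.89 (FDR 0.61) and 1.78 (FDR 0.734) without the 3 libraries.

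The METH effect was also compared between regions with an interaction term. No member passed FDR below 0.01 in any of the 6 pairs of regions in edgeR or DESeq2, and 0% of all genes did in edgeR. At an unadjusted p below 0.05 there were 2 members in NAc against DG, 2 in NAc against CA, 2 in DG against CA, 2 in CA against SVZ, 0 in NAc against SVZ and 0 in DG against SVZ, where 9.09%, 2.39%, 15.4%, 3.85%, 1.3% and 7.7% of all genes were below it. The lowest unadjusted p was that of Pvalb in NAc against CA, where the METH effect was larger in NAc by 1.28 ± 0.42 on the log2 scale (unadjusted p of 0.00832, FDR 1 in edgeR). Over 8 alternatives this difference was 1.28 to 1.31, with an unadjusted p of 0.00357 to 0.327 across edgeR and DESeq2. NAc and CA samples of the same treatment and replicate number share library numbers in the file headers, which the main fit does not use. The Pvalb effect in NAc exceeded that in DG by 1.56 ± 0.72 (unadjusted p of 0.0471, FDR 0.543 in edgeR), and ranged from 0.82 without DG saline replicate 2 to 1.92 without DG saline replicate 3.

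Genes around the panel were read from 5 lists. None of their genes met the call rule for METH in any region, and the gene with the smallest p of each list is given, apart from the transcription factors in NAc. Of 19 interneuron transcription factors, 16 to 18 were tested per region and 0 to 3 had an unadjusted p below 0.05 in one direction. The smallest p belonged to Prox1 in DG (1.59 ± 0.66), Sox6 in CA (0.34 ± 0.10) and Sox6 in SVZ (0.31 ± 0.17). Prox1 also defines dentate granule cells, and was 155, 27.1, 29.4 and 73.0 CPM in DG saline and 315, 269, 57.7 and 205 CPM in DG METH samples. The part of granule cells in these values was not tested. In CA 3 of 16 factors were below 0.05, all of them higher after METH, where 7.16% of all genes were in either direction. Their median log2 fold change was 0.22 against 0.01 over all genes. Sox6 is required for the Sst and Pvalb classes.

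Other interneuron subtype genes numbered 21, with 18 or 19 tested. Grik3, a kainate receptor subunit, had the smallest p in NAc (-0.49 ± 0.11, unadjusted p of 0.00165, FDR 0.999 in edgeR) and in DG (-1.11 ± 0.32, unadjusted p of 0.00776, FDR 0.235). In CA it was Nos1, the neuronal nitric oxide synthase, at 1.2 ± 0.28 (unadjusted p of 0.00185, FDR 0.669 in edgeR), and in SVZ Cxcl14 at -0.67 ± 0.29.

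For GABA uptake, breakdown and glutamine supply, all 8 genes were tested and 1 in DG and 1 in SVZ had an unadjusted p below 0.05, both lower after METH, where 12.8% and 2.58% of all genes were below it. These were the glutamine transporter Slc38a1 in DG (-0.66 ± 0.17, unadjusted p of 0.00369, FDR 0.201 in edgeR) and the GABA transporter Slc6a13 in SVZ (-1.42 ± 0.61). Slc6a13 also had the smallest p in NAc (1.04 ± 0.64), and the glutamine synthetase gene Glul in CA (0.16 ± 0.11).

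Of 14 receptors of the peptides, 10 or 11 were tested. Cckbr, the brain cholecystokinin receptor, was lower in DG after METH by the fit (-1.37 ± 0.33, unadjusted p of 0.00304, FDR 0.192 in edgeR) and was the only receptor with an unadjusted p below 0.05 in any region, 1 of 10 in DG, where 12.8% of all genes were below it. Vipr2 in NAc (-0.38 ± 0.27), Npy5r in CA (-0.43 ± 0.26) and Cckar in SVZ (1.42 ± 1.31) had the smallest p elsewhere. Of the 8 peptide-processing genes, the granin Chga had the smallest p in DG (-0.95 ± 0.28) and in CA (0.33 ± 0.13), Scg2 in NAc (0.55 ± 0.36) and the convertase gene Pcsk2 in SVZ (-0.34 ± 0.18).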

How the data were processed

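Total RNA depleted of ribosomal RNA was sequenced in 32 samples, 4 for each of 4 regions and 2 treatments. The authors deposited raw read counts per gene for each sample. Per the submitters' processing notes these came from cutadapt 2.7, FastQC 0.11.4, STAR 2.5.2b and featureCounts 1.6.3, and per the file headers from the Ensembl annotation of rn6 with a minimum mapping quality of 10. A count matrix of 14714 genes for the whole series, also deposited as counts, holds 97.7% to 99.2% of the reads of each sample and was used as an alternative.

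From the counts, edgeR 4.0.16 quasi-likelihood tests (R 4.3.3) were run after upper-quartile normalization and edgeR's default expression filter, with Benjamini-Hochberg adjustment over all genes tested. Each METH comparison used the 8 samples of its region (FDR below 0.01 and a fold change above 1.5). Saline regions were compared in a fit of the 16 saline samples (FDR below 0.01 and above 2-fold), and interactions in the 16 samples of both regions. SEs were obtained by dividing each absolute log2 fold change by the square root of its F statistic. CPM uses upper-quartile library sizes over all 32 samples. Total counts were 11094002 to 21869773 per sample, and 3 reads were taken as the floor. The lowest chi-square per degree of freedom between 2 replicates of a group was 16.4, so replicates differed beyond sampling noise. Scripts were tested on simulated data.

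The alternatives were TMM, DESeq2 1.42.0, no expression filter, FDR below 0.05 with no fold limit, the count matrix, a fit of all 32 samples, 2 RUVr factors, run group, library number or replicate number as a covariate, and leaving samples out. In SVZ the METH counts of the same library number were also summed. The run group is a tag within the names in the file headers, which do not state that it is a sequencing run. Same-numbered NAc and CA saline samples carry the same library numbers in the file headers, 14, 15, 22 and 23, and their deviations from the group means correlated at 0.11 to 0.25 in all 4 pairs, so that these numbers pair the samples. Of the 10 members, the 8 with a test were described in the METH comparisons, and region and interaction values are given for some of them. Cort and Npy entered no test. Each list of other genes is given by its count, its median and the gene with the smallest p, and the 3 most alike genes of a member were found by the correlation of log2(CPM + 1) among genes with a mean of at least 1 CPM. Some genes that these rules select are not reported here. The members and lists were chosen with earlier results of these data known. Promoter sequences are from RefSeq (GRCr8), whereas gene positions are those of the files (rn6).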

Additional observations from a re-analysis of the deposited data

Results flagged for a closer look

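In 11 of 64 groups of 4 samples, the highest or lowest sample of a member lay so far from the rest that its gap to the nearest other sample, over the range of the group, exceeded Dixon's critical value at the 95% level, which chance gives in about 1 of 20 groups. SVZ saline replicate 1 was high in Vip (74.3 CPM, nearest 3.65), Cck (348 CPM, nearest 35.1), Pvalb (317 CPM, nearest 17.8) and Calb2 (59.5 CPM, nearest 12.6). SVZ METH replicate 2 was high in Vip (76.3 CPM, nearest 8.12) and low in Sst (12.3 CPM, nearest 62.8). Both are libraries with thalamic markers. Slc32a1 stood out in DG saline replicate 3 (334 CPM, nearest 96.6), the library with medium spiny neuron markers, and Calb2 in NAc METH replicate 3 (102 CPM, nearest 12.5), the library with septal and hypothalamic markers. CA METH replicate 3 was high in Gad2 (402 CPM, nearest 295) and low in Cck (125 CPM, nearest 213), and NAc saline replicate 4 was high in Vip (6.29 CPM, nearest 1.24). Cck was also highest of its group in the latter sample, at 77.9 CPM, as was the sum of cortical glutamatergic markers at 925 CPM against 87.7 to 191 CPM in the other NAc saline samples.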

How the results depend on the processing

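No member met the call rule for METH in any region, or for an interaction, under any alternative run. Between saline regions the count of members called went from 0 to 3 (Gad1, Gad2 and Slc32a1) in NAc against CA and in CA against SVZ with DESeq2, with 2 RUVr factors and at FDR below 0.05 with no fold limit. It ranged from 0 to 3 in these 2 pairs and in NAc against DG and DG against SVZ when 1 sample was left out, with 3 only without DG saline replicate 3. It was also 3 in these 4 pairs without both DG saline replicate 3 and SVZ saline replicate 1, a choice made after seeing the data, where 469, 708, 200 and 390 of all genes were called. Among all genes, calls in CA against SVZ went from 126 to 766 with DESeq2, 727 with RUVr, 2050 at FDR below 0.05 and 387 without DG saline replicate 3, and in NAc against CA from 0 to 529, 490, 791 and 209. The cause was not tested.

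Signs of log2 fold changes reversed as follows. With the replicate block (replicate number as a covariate) they were 0.42 for Cck in DG after METH, 0.11 for Sst in SVZ after METH and 0.41 for Vip in DG against SVZ. The block changed no call, also in NAc against CA, where the numbers pair the samples. In the other comparisons the correlations of same-numbered samples ran from -0.78 to 0.42, and the numbers were not taken as pairs. With 2 RUVr factors they were 0.79 for Cck in DG and 0.24 for Sst in SVZ after METH, and 1.10 for Vip and 0.06 for Pvalb in DG against SVZ. With run group as a covariate they were -0.42 for Vip, -0.76 for Calb2, 0.02 for Gad1 and 0.01 for Slc32a1 in NAc, 0.06 for Sst, 2.99 for Vip, 5.01 for Cck and 1.91 for Pvalb in DG, and -0.03 for Gad1 in CA. The DG fit rests on saline replicate 3 and METH replicates 1 and 2, the samples of the run group that holds both treatments, and SVZ has a single run group. With replicates 3 and 4 alone, a fit that again holds DG saline replicate 3, DG gave 0.35 for Vip, 1.21 for Cck and 0.78 for Pvalb. Without DG saline replicate 3 and SVZ saline replicate 1, Vip was 0.24 in NAc against SVZ and 3.42 in DG against SVZ, Pvalb 2.11 in DG against SVZ and 1.13 in CA against SVZ, and Gad1 -0.06 in DG against CA.

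Leaving out 1 sample reversed further signs, given here for the METH fold changes and for the region differences followed in the alternatives, not for every member in every region pair or interaction. For METH the ranges were -0.99 to 0.56 for Cck, -0.07 to 0.26 for Gad2 and -1.19 to 1.45 for Calb2 in NAc, and -0.62 to 0.12 for Cck, -0.85 to 0.24 for Pvalb, -0.76 to 0.05 for Gad1, -0.90 to 0.23 for Gad2 and -1.19 to 0.03 for Slc32a1 in DG. They were -0.45 to 0.12 for Pvalb and -0.01 to 0.18 for Gad1 in CA, and -0.60 to 0.23 for Sst, -1.45 to 3.61 for Vip and -0.07 to 1.6 for Calb2 in SVZ. Between saline regions they were -0.06 to 0.75 for Gad1 in DG against CA, -4.24 to 0.25 for Vip in NAc against SVZ, -0.89 to 3.03 for Vip and -1.89 to 1.74 for Pvalb in DG against SVZ, and -2.15 to 1.14 for Pvalb in CA against SVZ. Of the 24 most alike genes, 15 remained with region means subtracted and 8 with Spearman's correlation.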

Other observations

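In saline rats, the genes around the panel differed most between CA and SVZ, where 31.6% of all genes had an unadjusted p below 0.05 and the median log2 difference over all genes was -0.10. Of 11 receptors of the peptides tested, 5 were higher in CA and 2 higher in SVZ at that level, with a median of 0.72. The somatostatin receptor gene Sstr3 had the smallest p (log2 difference 2.13 ± 0.50, FDR 0.0176 in edgeR). Of 18 interneuron transcription factors, 3 were higher in CA and 7 higher in SVZ, with a median of -0.34, and Npas1 had the smallest p (1.44 ± 0.31, FDR 0.0142 in edgeR). Among 8 peptide-processing genes, 2 were higher in CA and 0 in SVZ, led by the convertase gene Pcsk1 (1.77 ± 0.38, FDR 0.014 in edgeR). The glutamine transporter Slc38a1 was at -0.65 ± 0.18 and the CRH-binding protein gene Crhbp at 2.02 ± 0.61. None of these genes met FDR below 0.01 with a fold change above 2 in edgeR.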
